A study of Mus musculus with 6 samples.

Results

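Genes that modify, fold and cross-link collagen were followed by name, 10 in a table of 24421 genes: P4ha1, P4ha2, P4ha3, P4hb, Plod1, Plod2, Plod3, Lox, Loxl2 and Serpinh1. All 10 had a row, and 9 of them passed the count filter and were tested; Lox did not. The RNA came from retinal endothelial cells of mouse pups of mixed BL6/CD1 background, which received tamoxifen at postnatal day 1 and were collected at postnatal day 7. The 3 Smad4-iECKO libraries carried homozygous floxed Smad4 (Smad4f/f) and Cdh5-CreERT2, a Cre recombinase made under an endothelial promoter and active after tamoxifen. The 3 Smad4f/f libraries had the same floxed alleles without the Cre. The labels do not say how many pups each sample holds, so a p-value here covers only the spread among the 6 samples, which may be technical.

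Collagen chains are modified in the endoplasmic reticulum before they leave the cell. Prolyl 4-hydroxylase, built of a catalytic alpha subunit (P4ha1, P4ha2 or P4ha3) and protein disulfide isomerase (P4hb), makes the hydroxyproline that keeps the triple helix stable, and the lysyl hydroxylases (Plod1 to Plod3) prepare lysines for sugars and cross-links. Serpinh1 encodes HSP47, the chaperone that binds the folded helix, and outside the cell Lox and Loxl2 oxidise lysines so that neighbouring molecules are joined. In growing retinal vessels these steps serve the vascular basement membrane, whose main network is type IV collagen.

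P4ha2 was the member whose groups stood apart in these libraries, and its promoter is shown first so that it can be read against those of the other alpha subunits. The windows run from 250 bases before to 50 bases after the RefSeq start site (GRCm38.p6, plus strand), at chr11:54100674-54100973 for P4ha2, chr10:59323046-59323345 for P4ha1 and chr7:100285270-100285569 for P4ha3. The GENCODE M21 model of P4ha2 begins before its window, at chr11:54100095, while those of P4ha1 and P4ha3 begin inside their windows. Matches near that upstream P4ha2 start were not counted. Capitals mark ACGTG or GCGTG on either strand, the core letters of the hypoxia response element.
P4ha2: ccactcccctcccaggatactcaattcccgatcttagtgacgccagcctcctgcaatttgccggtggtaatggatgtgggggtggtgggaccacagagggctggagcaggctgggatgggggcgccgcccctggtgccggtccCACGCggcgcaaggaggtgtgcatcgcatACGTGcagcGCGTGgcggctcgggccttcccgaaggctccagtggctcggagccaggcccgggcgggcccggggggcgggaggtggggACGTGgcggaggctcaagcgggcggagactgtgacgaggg
P4ha1: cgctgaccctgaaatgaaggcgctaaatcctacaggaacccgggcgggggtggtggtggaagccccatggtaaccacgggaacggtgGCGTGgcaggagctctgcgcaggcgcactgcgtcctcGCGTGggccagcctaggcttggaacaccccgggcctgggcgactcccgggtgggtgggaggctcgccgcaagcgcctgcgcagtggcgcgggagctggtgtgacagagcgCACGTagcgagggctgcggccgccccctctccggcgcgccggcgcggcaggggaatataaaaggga
P4ha3: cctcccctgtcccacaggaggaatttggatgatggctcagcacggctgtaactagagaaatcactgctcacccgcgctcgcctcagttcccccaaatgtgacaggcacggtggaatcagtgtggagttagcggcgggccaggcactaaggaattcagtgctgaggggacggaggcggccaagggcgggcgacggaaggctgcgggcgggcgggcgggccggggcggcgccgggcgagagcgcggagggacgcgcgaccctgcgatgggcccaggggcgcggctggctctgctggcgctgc
The P4ha2 window held 4 matches, 2 of each motif, which start 107, 78 and 69 bases before the start site and 10 bases after it. P4ha1 held 3, and P4ha3 held 0. ACGTG was found in 19.6% and GCGTG in 32.4% of 32851 RefSeq promoter windows of the same length, and 3.86% held 4 or more matches of either. Plod3 also held 4, P4hb 3, Plod1 2 and Serpinh1 1. A match is a run of letters and was not tested as a binding site. RefSeq windows were matched for 7 of the 10 genes, and Plod2, Lox and Loxl2 were not among them.

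Total counts ran from 2233360 to 17677696 in the Smad4-iECKO libraries and from 12633018 to 23164952 in the Smad4f/f libraries, and the shallowest was Smad4-iECKO replicate 2. Each sample had 3 columns with identical values in all 24421 genes and was counted once. Replicate 2 of each group has a sample title that begins with Lit40, and replicates 1 and 3 begin with Lit38; these are called prefix 40 and prefix 38 below, and the labels do not explain them. Smad4 itself lay at 93.9 to 133.9 CPM (read counts scaled by TMM to a common library size) in Smad4-iECKO and at 110 to 158 CPM in Smad4f/f, and a count over the whole gene includes exons that remain after deletion, so it does not check the genotype. All 18 endothelial markers were detected in every library, with a summed level of 2653 to 5398 CPM in Smad4-iECKO and 1523 to 7856 CPM in Smad4f/f. Rod photoreceptor markers (12 genes, all detected) summed to 6462 to 8954 CPM in Smad4-iECKO and 5733 to 11212 CPM in Smad4f/f, so neural retina RNA was present in all 6 libraries. In these bulk libraries, fewer cells of a type and less RNA per cell cannot be told apart.

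P4ha2, the catalytic subunit of the type II enzyme, was higher in Smad4-iECKO, and the 2 groups did not overlap. It had 12.2, 14.4 and 11.5 CPM in Smad4-iECKO replicates 1, 2 and 3, against 5.05, 5.51 and 4.26 CPM in the Smad4f/f libraries in the same order. The values within each group lay close together, with the highest 1.26 times the lowest in Smad4-iECKO and 1.29 times in Smad4f/f. P4ha2 averaged 12.7 ± 1.52 CPM in Smad4-iECKO, against 4.94 ± 0.632 CPM in Smad4f/f (SD, n = 3 each). The fitted log2 fold change was 1.35 (SE, the standard error, 0.41), or 2.55-fold. The unadjusted p was 0.00925 in edgeR's quasi-likelihood test, and the Benjamini-Hochberg adjusted p over 14362 genes was 1.00, so the difference did not pass the test. The gene lies at chr11:54100095-54131665 on the plus strand (ENSMUSG00000018906.14; mm10, GENCODE M21).

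P4ha2 was the 1 member of 9 tested without overlap between the groups on the higher side, where 2.49% of all tested genes had none, and 0 members were without overlap on the lower side, against 2.83%. No member passed an adjusted p under 0.05, and neither did any other gene (0% of 14362). P4ha2 was also the 1 member with an unadjusted p under 0.05, which 1.31% of all tested genes reached, 0.919% on the higher side. In the other fits of 6 samples that share was 2.16% (DESeq2), 5.44% (limma-voom), 2.01% (no count filter), 1.33% (RLE size factors), 2.11% (title prefix as a term) and 0.279% (endothelial scaling), and in prefix 38 alone 4.13%. DESeq2 gave P4ha2 an unadjusted p of 0.00112 and an adjusted p of 0.466, with 0.0705% of genes called, and limma-voom with sample quality weights an adjusted p of 0.271, with 0.0557% called. In the shallow Smad4-iECKO replicate 2 the value rests on 31 reads, with an exact 95% Poisson interval of 9.79 to 20.5 CPM, which covers counting error only. That interval lies above the highest Smad4f/f value of 5.51 CPM, and also above 6.53 CPM, the upper bound of the interval of that library.

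The P4ha2 difference was also computed within each title prefix. In the prefix 38 libraries the ratio of means was 2.55, and the edgeR log2 fold change was 1.33 (unadjusted p = 0.0139, adjusted p = 0.999). In the prefix 40 pair the ratio was 2.61, from 1 library per group with no test.

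**Figure D1:**
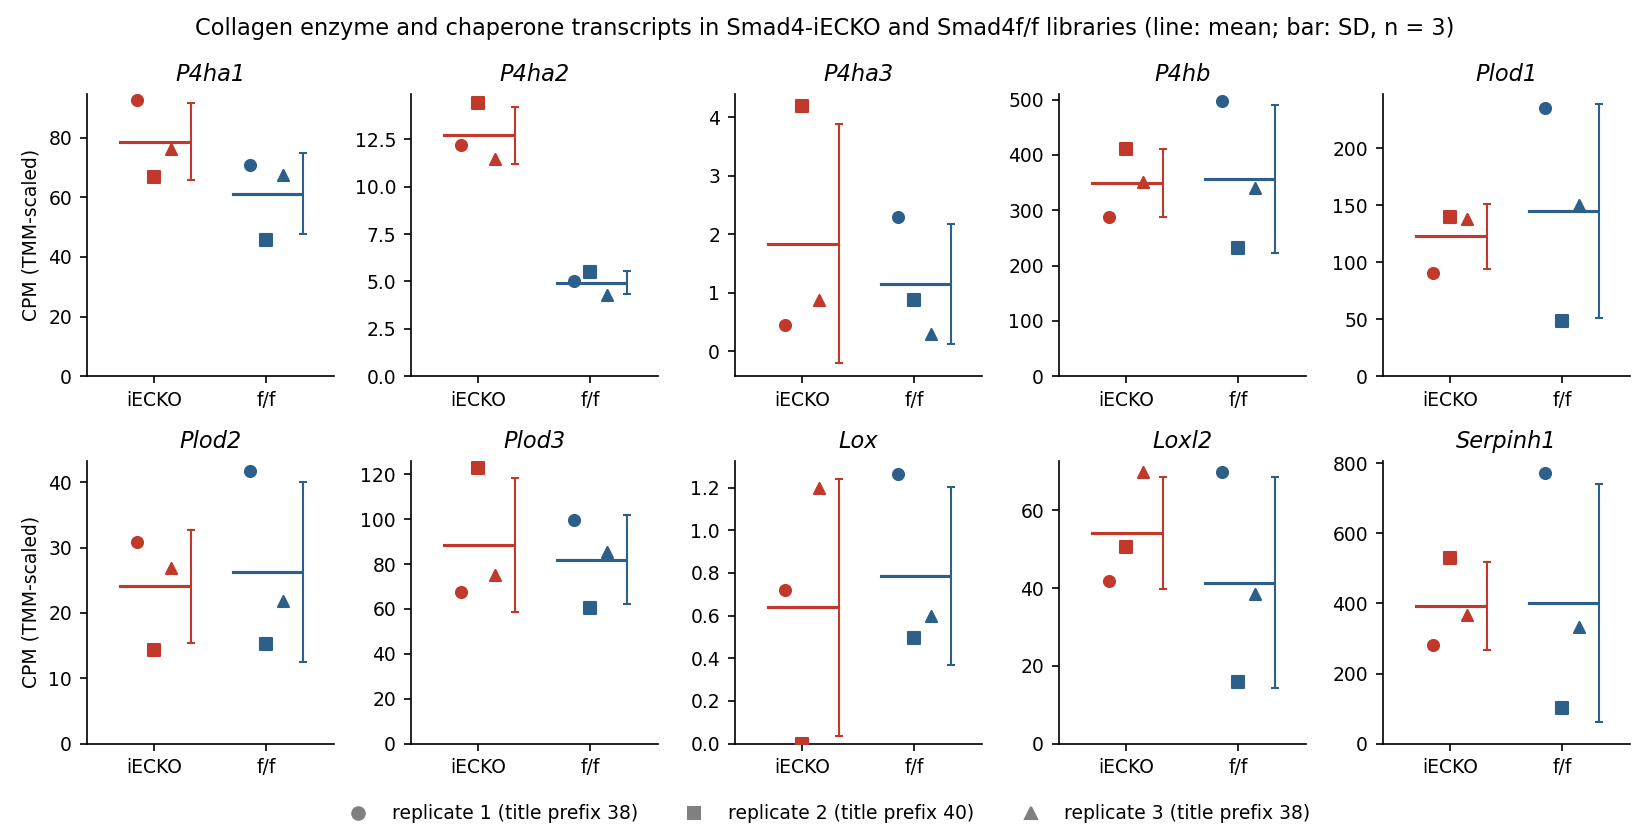
TMM-scaled CPM of the 10 genes in each library, Smad4-iECKO left of Smad4f/f; points are libraries, horizontal lines are means and vertical bars are SD (n = 3). The P4ha2 points of Smad4-iECKO (11.5 to 14.4 CPM) lie above those of Smad4f/f (4.26 to 5.51 CPM), and the points of every other gene overlap between the groups.

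P4ha1, the most abundant alpha subunit gene, had 92.5, 66.9 and 76.3 CPM in Smad4-iECKO against 70.7, 45.7 and 67.3 CPM in Smad4f/f. The groups overlapped, since Smad4f/f replicates 1 and 3 lay above the lowest Smad4-iECKO library, Smad4-iECKO replicate 2. P4ha1 averaged 78.6 ± 12.9 CPM in Smad4-iECKO, against 61.3 ± 13.6 CPM in Smad4f/f (SD, n = 3 each), and the fitted log2 fold change was 0.36 (SE 0.30; edgeR unadjusted p = 0.255, adjusted p = 1.00). Within prefix 38 both Smad4-iECKO libraries lay above both Smad4f/f libraries, and within the prefix 40 pair the ratio was 1.46. The share of all tested genes split in this way within prefix 38 was not counted.

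P4ha3, the alpha subunit with the fewest reads, had 29 or fewer in each library. It had 8, 9 and 11 reads in Smad4-iECKO, or 0.444, 4.18 and 0.877 CPM, and 29, 21 and 4 reads in Smad4f/f, or 2.29, 0.864 and 0.299 CPM. The highest value, in Smad4-iECKO replicate 2, had an exact 95% Poisson interval of 1.91 to 7.94 CPM. The log2 fold change was 0.40 (SE 1.12; edgeR adjusted p = 1.00) and turned to -0.83 without that library.

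P4hb, the beta subunit of prolyl 4-hydroxylase and a general disulfide isomerase, did not differ beyond its spread. It had 288, 410 and 351 CPM in Smad4-iECKO against 497, 232 and 341 CPM in Smad4f/f. Both extremes were Smad4f/f libraries. The log2 fold change was -0.028 (SE 0.35; edgeR adjusted p = 1.00).

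Per kilobase of merged exons the 3 alpha subunit genes could be set beside each other. P4ha1 made up 81.7% to 91.5% of the summed alpha CPM per kilobase in Smad4-iECKO and 90.6% to 95.5% in Smad4f/f. P4ha2 made up 7.97%, 11.6% and 8.90% in Smad4-iECKO replicates 1, 2 and 3, against 4.32%, 7.20% and 3.99% in Smad4f/f replicates 1, 2 and 3. The P4ha2 share was thus highest in the Smad4-iECKO libraries without overlap, although Smad4f/f replicate 2 came close to Smad4-iECKO replicate 1. The summed alpha level was 24.4%, 13.9% and 16.9% of the P4hb level in Smad4-iECKO, against 10.8%, 15.2% and 14.4% in Smad4f/f, with overlap. These shares combine members and were not tested.

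The lysyl hydroxylase genes showed no difference larger than the spread between replicates. Plod1, the enzyme of helical lysines, had 90.1, 139.9 and 138 CPM in Smad4-iECKO against 235, 48.1 and 150.4 CPM in Smad4f/f, and the Smad4f/f libraries alone spanned 4.90-fold. Its log2 fold change was -0.24 (SE 0.51; edgeR unadjusted p = 0.650, adjusted p = 1.00).

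Plod2, the enzyme of telopeptide lysines and a known target of hypoxia signalling, had 30.9, 14.4 and 26.9 CPM in Smad4-iECKO against 41.8, 15.2 and 21.8 CPM in Smad4f/f. Both prefix 40 libraries were the lowest of their group, and the groups overlapped. The log2 fold change was -0.10 (SE 0.46; edgeR adjusted p = 1.00).

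Plod3, which also transfers sugars to collagen, had 67.4, 123 and 75.2 CPM in Smad4-iECKO against 99.8, 60.6 and 85.4 CPM in Smad4f/f. The log2 fold change was 0.10 (SE 0.34; edgeR adjusted p = 1.00). Its exons share 529 of 4519 bases with Znhit1 on the other strand, and the library kit does not mark strand, so reads there cannot be assigned. The overlap is 11.7% of the merged exon length; it was 6.42% for Plod2 and 5.57% for Loxl2, each with a gene of the opposite strand.

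Plod1 and Plod3 went opposite ways in the prefixes. Within prefix 38 both were lower in both Smad4-iECKO libraries than in either Smad4f/f library, with ratios of means of 0.591 for Plod1 and 0.770 for Plod3. With so few libraries such a split arises easily by chance, and its share over all tested genes was not counted. In the prefix 40 pair the ratio was 2.91 for Plod1 and 2.02 for Plod3. The edgeR test of the interaction of prefix and genotype gave 2.30 for Plod1 and 1.40 for Plod3 on the log2 scale and did not pass for either. The interaction was positive for every tested member, from 0.037 for P4ha2 to 3.24 for P4ha3. The share of all genes with values this high was not counted. Prefix 40 holds 1 library per genotype, so the spread in that test comes from the prefix 38 libraries alone, and the lone libraries are assumed to vary like them.

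Of the cross-linking enzymes, Loxl2 was well detected and Lox was not. Loxl2, a lysyl oxidase that acts on type IV collagen, had 41.8, 50.7 and 69.9 CPM in Smad4-iECKO against 69.9, 15.97 and 38.4 CPM in Smad4f/f. The groups overlapped, with Smad4f/f replicate 2 below all other libraries. The log2 fold change was 0.39 (SE 0.50; edgeR unadjusted p = 0.454, adjusted p = 1.00).

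Lox, the founding lysyl oxidase of fibrillar collagens, had 13, 0 and 15 reads in Smad4-iECKO and 16, 12 and 8 reads in Smad4f/f. It was listed at 0 in the shallow Smad4-iECKO replicate 2, where a count of 3 corresponds to 1.34 CPM on the unscaled total. The other 5 libraries ran from 0.494 to 1.26 CPM, below that mark, so the 0 does not show that Lox was lower there. Lox failed the count filter and has no test.

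Serpinh1, the collagen chaperone gene and the most abundant member per kilobase, ranged more widely in Smad4f/f than between the groups. It had 283, 529 and 367 CPM in Smad4-iECKO against 771, 102 and 333 CPM in Smad4f/f. The highest Smad4f/f library was 7.57 times the lowest, and the Smad4-iECKO libraries lay between them. The log2 fold change was -0.035 (SE 0.62; edgeR unadjusted p = 0.957, adjusted p = 1.00). Without Smad4f/f replicate 1 it was 0.85 and without Smad4f/f replicate 2 it was -0.50, and neither passed the test. Within prefix 38 the ratio of means was 0.588 and in the prefix 40 pair it was 5.19. The interaction of prefix and genotype, with the same limits, was 3.14 on the log2 scale and did not pass.

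Over the 9 tested members, 5 log2 fold changes were positive with a median of 0.10, against 48.2% positive and a median of -0.017 over all tested genes. The members' median was -0.18 without Smad4-iECKO replicate 2, 0.47 without Smad4f/f replicate 1, when 9 of 9 were positive, and -0.39 in prefix 38 alone, when 3 were.

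**Figure D2:**
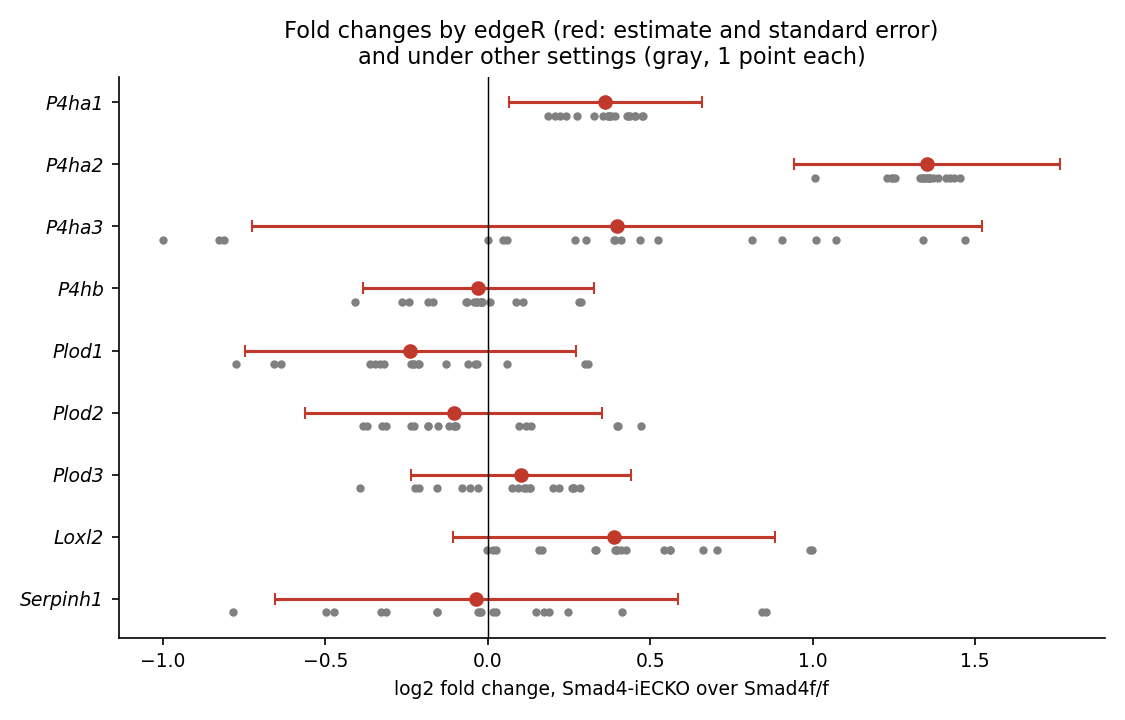
edgeR log2 fold changes of the 9 tested genes, Smad4-iECKO over Smad4f/f (red points with standard error bars), with the estimates of 19 other settings as gray points below each. The gray points of P4ha2 run from 1.01 to 1.45 and those of P4ha1 from 0.19 to 0.48, while those of P4hb, Plod1, Plod2, Plod3, P4ha3 and Serpinh1 lie on both sides of 0.

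On the scale of mean CPM per kilobase over all 6 libraries, the order of levels was Serpinh1 (163), P4hb (123), Plod1 (19.8), Plod3 (18.9), P4ha1 (17.0), Loxl2 (8.84), Plod2 (4.67), P4ha2 (1.41), P4ha3 (0.476) and Lox (0.149). Serpinh1 and P4hb ranged over 41.7 to 316 and 81.0 to 174 CPM per kilobase and overlapped. Plod1, Plod3 and P4ha1 overlapped with each other as well, at 7.10 to 34.8, 13.4 to 27.2 and 11.1 to 22.5 CPM per kilobase. P4ha2, at 0.683 to 2.31 CPM per kilobase, lay below every library's Plod2 level of 2.67 to 7.75, and it overlapped with P4ha3 at 0.0955 to 1.33. Transcripts of the shared beta subunit exceeded the summed alpha subunits in every library.

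The members did not share 1 pattern across libraries. Smad4f/f replicate 2, which had the lowest summed endothelial level (1523 CPM), was the lowest library for P4ha1, P4hb, Plod1, Plod3, Loxl2 and Serpinh1. Smad4f/f replicate 1, which had the highest (7856 CPM), was the highest library for P4hb, Plod1, Plod2, Lox, Loxl2 and Serpinh1. P4ha2 did not follow that order: it had 5.05 CPM in the library with the most and 5.51 CPM in the library with the least endothelial transcript of Smad4f/f.

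Each tested member was therefore also set against the endothelial list within a library, as log2(CPM + 0.5) minus the mean of that list on the same scale. Loxl2 was at -1.20, -1.73 and -1.15 in Smad4-iECKO against -2.18, -1.75 and -2.08 in Smad4f/f. On this scale it was higher in all 3 Smad4-iECKO libraries without overlap, although Smad4-iECKO replicate 2 and Smad4f/f replicate 2 lay close together. The share of all tested genes without overlap on this scale was not counted. The difference of means was 0.64 (two-sided exact permutation p = 0.1, the smallest that 3 against 3 allows, adjusted p = 0.9 over 9 comparisons).

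Serpinh1 was at 1.54, 1.64 and 1.23 in Smad4-iECKO against 1.28, 0.89 and 1.02 in Smad4f/f, relative to the endothelial list, with 1 overlap (difference 0.41, exact permutation p = 0.2, adjusted p = 0.9). Plod1 was at -0.18 ± 0.085 in Smad4-iECKO against -0.25 ± 0.16 in Smad4f/f (SD, n = 3 each), the narrowest range of the members on this scale (exact permutation p = 0.6, adjusted p = 0.9). The wide spread of both genes in CPM was thus smaller beside the endothelial list.

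P4ha2 lost its separation on this scale. It was at -2.93, -3.51 and -3.70 in Smad4-iECKO against -5.84, -3.20 and -5.11 in Smad4f/f, and Smad4f/f replicate 2 lay among the Smad4-iECKO libraries. The difference of means was 1.34 (exact permutation p = 0.3, adjusted p = 0.9). Leaving out Smad4f/f replicate 1 gave 0.77, and leaving out Smad4f/f replicate 2 gave 2.09. With the edgeR libraries scaled to the endothelial list, which put the median of all tested genes at -0.27 instead of -0.017, the P4ha2 log2 fold change was 1.01 (unadjusted p = 0.294, adjusted p = 1.00).

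**Figure D3:**
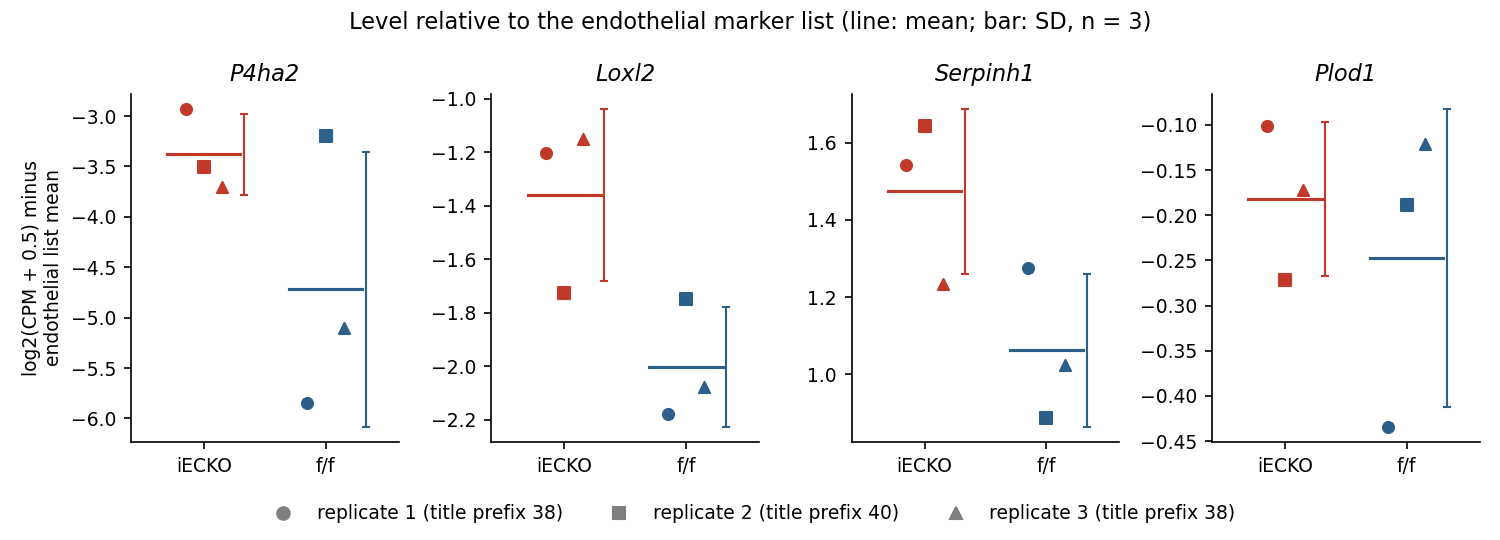
Level of P4ha2, Loxl2, Serpinh1 and Plod1 relative to the endothelial marker list, as log2(CPM + 0.5) minus the mean of the list, by library, with means and SD (n = 3). Loxl2 is higher in all 3 Smad4-iECKO libraries (-1.73 to -1.15) than in Smad4f/f (-2.18 to -1.75), while Smad4f/f replicate 2 (-3.20) lies among the Smad4-iECKO libraries for P4ha2. The share of all tested genes split like Loxl2 on this scale was not counted.

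Some markers of other cell types also differed between the groups. The 12 microglia and macrophage markers summed to 99.3, 80.9 and 132 CPM in Smad4-iECKO against 59.5, 36.1 and 64.0 CPM in Smad4f/f, without overlap. Within each genotype, this sum ranked the libraries in the reverse order of P4ha2. The exact 95% Poisson intervals of P4ha2 overlap among the libraries of each genotype, so its order there is not resolved. Of the 12 markers, 10 were detected in every library, while C1qa and P2ry12 were not. Among the 12, 11 had a positive log2 fold change, with a median of 0.91. Of them, 5 were without overlap on the higher side, where 2.49% of all tested genes had none. Csf1r, a macrophage receptor, had 17.2 to 22.4 CPM in Smad4-iECKO and 8.81 to 17.9 CPM in Smad4f/f. The part of these cells in the P4ha2 difference was not tested. Fibroblast markers (9 genes, 6 detected in every library) summed to 348 to 813 CPM in Smad4-iECKO and 128 to 596 CPM in Smad4f/f, with overlap. Of the 7 tested fibroblast markers, 4 were positive with a median of 0.63. The 2 without overlap on the higher side, where 2.49% of all tested genes had none, were Col1a1 and Col1a2. Both also belong to the list of collagen chains below, so they are not a separate result. Col1a1 had 8.13 to 40.4 CPM in Smad4-iECKO and 2.22 to 6.47 CPM in Smad4f/f, while Dcn was at 0 in 5 of 6 libraries and at 0.237 CPM in Smad4f/f replicate 1. Their part in the P4ha2 difference was not tested. Pericyte and smooth muscle markers (11 genes, all detected) summed to 1124 to 2090 CPM in Smad4-iECKO and 630 to 2877 CPM in Smad4f/f, and astrocyte and Mueller glia markers (9 of 10 detected in every library) to 1176 to 2230 CPM in Smad4-iECKO and 947 to 2229 CPM in Smad4f/f, both with overlap. Of the 11 pericyte and smooth muscle markers, 7 were positive with a median of 0.0062, and 0 were without overlap. Of the 10 glia markers, 8 were positive with a median of 0.40. Among these 10, 2 were without overlap on the higher side, where 2.49% of all tested genes had none. The part of glia in the P4ha2 difference was not tested.

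Hypoxia is known to induce P4ha1, P4ha2, Plod2 and Lox in mammalian cells, and a list of 19 hypoxia-induced genes was set beside them. Of its 18 tested genes, 15 had positive log2 fold changes and 0 passed the test, with a median of 0.14 against -0.017 over all 14362 tested genes, of which 48.2% were positive. Vegfa, the vascular growth factor, had 352, 364 and 239 CPM in Smad4-iECKO against 185, 136 and 148 CPM in Smad4f/f (log2 fold change 1.03, edgeR unadjusted p = 0.00818, adjusted p = 1.00). Egln3, an oxygen-sensing prolyl hydroxylase of HIF, had 4.999, 7.44 and 8.29 CPM in Smad4-iECKO against 2.44, 1.85 and 2.24 CPM in Smad4f/f, a log2 fold change of 1.66 (SE 0.53). Hk2, a hexokinase gene, had 37.4, 31.6 and 31.3 CPM in Smad4-iECKO against 11.5, 13.3 and 24.2 CPM in Smad4f/f. These 3 of the 18 genes were without overlap on the higher side like P4ha2, where 2.49% of all tested genes had none. Plod2 and P4ha1 overlapped, and Higd1a, a mitochondrial hypoxia gene, lay at -0.66 (log2 fold change, SE 0.52). The hypoxia genes named here have the smallest p of their list. With endothelial scaling 8 of 18 were positive, with a median of -0.069 against -0.27 for all genes.

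**Figure D4:**
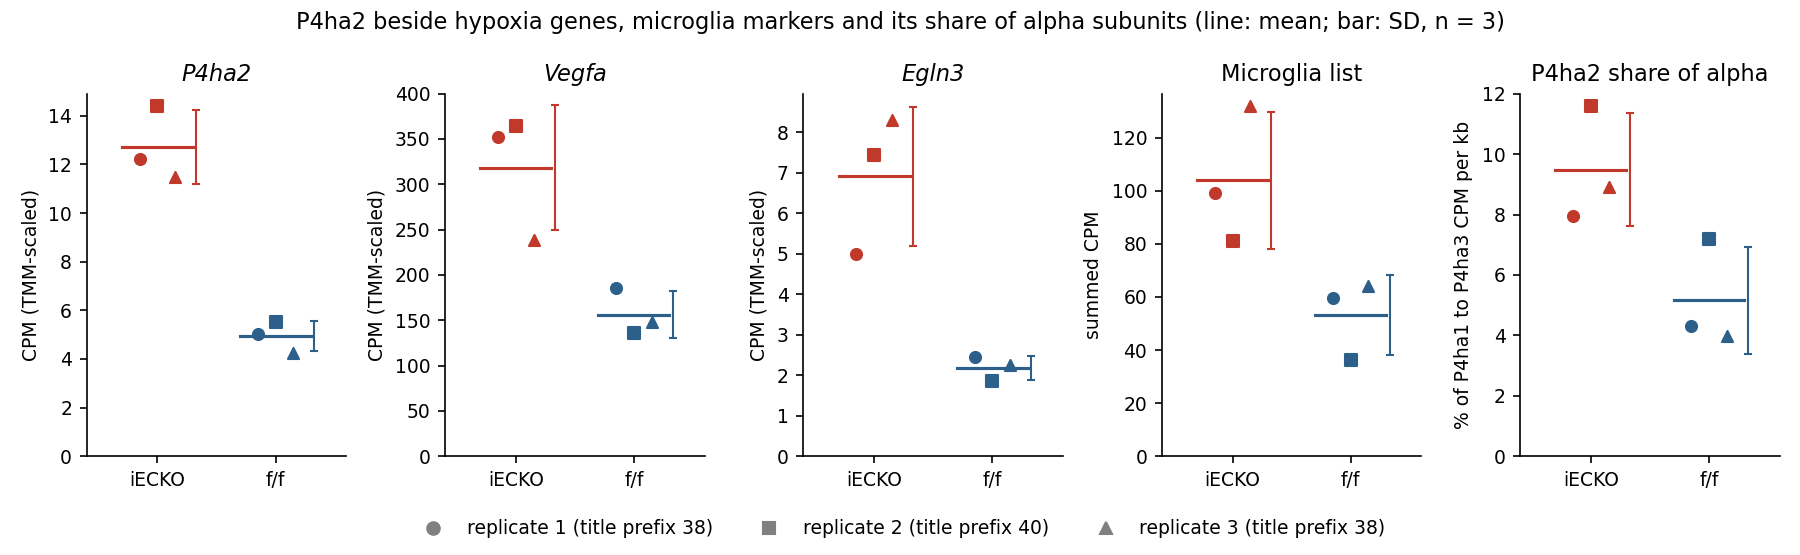
P4ha2, Vegfa and Egln3 in TMM-scaled CPM, the summed CPM of the microglia list, and P4ha2 as a percent of the summed CPM per kilobase of P4ha1 to P4ha3, by library with means and SD (n = 3). For all 5 quantities the Smad4-iECKO points lie above the Smad4f/f points, with the smallest gap in the P4ha2 share (7.97% against 7.20%). The genes shown were picked from their lists for the smallest p, so their likeness follows from that choice. Of the 18 tested hypoxia genes, 3 were without overlap on the higher side.

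The collagen chains on which these enzymes act had a different spread. Of 21 tested chains, 20 had positive log2 fold changes with a median of 1.20 and 0 passed the test. Without Smad4-iECKO replicate 2 there were 17 positive with a median of 0.44, without Smad4f/f replicate 2 the median was 0.79, and in prefix 38 alone 13 were positive with a median of 0.15. Summed over the 23 listed chains, the level was 7398, 34824 and 11001 CPM in Smad4-iECKO against 9439, 2322 and 6121 CPM in Smad4f/f. Col1a2, a chain of fibrillar type I collagen, had 44.0, 295 and 50.8 CPM in Smad4-iECKO against 26.2, 17.4 and 25.4 CPM in Smad4f/f, and Col1a1, its partner, 9.22, 40.4 and 8.13 CPM in Smad4-iECKO against 6.47, 2.22 and 5.69 CPM in Smad4f/f. Col15a1, a basement membrane zone collagen, had 151, 623 and 275 CPM in Smad4-iECKO against 139, 57.7 and 127 CPM in Smad4f/f, and Col5a3, a minor fibrillar chain, 73.6, 226 and 67.8 CPM in Smad4-iECKO against 49.7, 56.4 and 47.4 CPM in Smad4f/f. The enzymes shared this order of libraries in part. Among the members, Smad4-iECKO replicate 2 was the highest of all libraries for P4ha2, P4ha3 and Plod3 alone. It was also the highest of its group for P4hb, Plod1 and Serpinh1, and the lowest of its group for P4ha1, Plod2 and Lox. Smad4f/f replicate 2, the lowest for the summed chains, was also the lowest for P4ha1, P4hb, Plod1, Plod3, Loxl2 and Serpinh1.

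Other enzymes of the same steps gave no call. Of 19 tested collagen modification and folding factors of the endoplasmic reticulum, 10 were positive, with a median of 0.028. P3h2, a prolyl 3-hydroxylase of basement membrane collagens, had 18.4, 37.2 and 14.8 CPM in Smad4-iECKO against 11.04, 12.8 and 10.9 CPM in Smad4f/f (log2 fold change 0.99, edgeR unadjusted p = 0.0442, adjusted p = 1.00). Creb3l1, a transcription factor of the secretory pathway, had 1.89, 5.58 and 4.07 CPM in Smad4-iECKO against 0.788, 0.946 and 1.42 CPM in Smad4f/f (log2 fold change 1.81, edgeR unadjusted p = 0.0331, adjusted p = 1.00). These were the 2 genes of the list without overlap, both on the higher side, where 2.49% of all tested genes had none. The prolyl 3-hydroxylase genes P3h1 and P3h3 had log2 fold changes of 0.72 and 0.69, with standard errors of 0.50 and 0.46.

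Of the remaining lysyl oxidases, Loxl1, which acts on elastin, had 3.89, 17.2 and 7.49 CPM in Smad4-iECKO against 9.78, 2.55 and 1.80 CPM in Smad4f/f, Loxl3 had a log2 fold change of 0.39, and Loxl4 one of -0.023. All 3 overlapped between the groups. Of 9 tested genes for propeptide removal and fibril assembly, 5 were positive, with a median of 0.21; the procollagen proteases Adamts2 and Adamts14 had log2 fold changes of 1.27 and 1.39, fibronectin (Fn1) 0.39 and the C-proteinase Bmp1 0.21, and the groups overlapped for each. Of 20 genes listed as general chaperones and oxidoreductases of the endoplasmic reticulum, 3 were positive, with a median of -0.18. The list also holds regulators such as Xbp1. Hsp90b1 (-0.37), Calr (-0.42), Xbp1 (-0.36) and Creld2 (0.47), in log2 fold change, had the smallest p and overlapped between the groups, and without Smad4f/f replicate 1, 11 of 20 were positive with a median of 0.049. No gene of these lists passed the test.

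**Figure D5:**
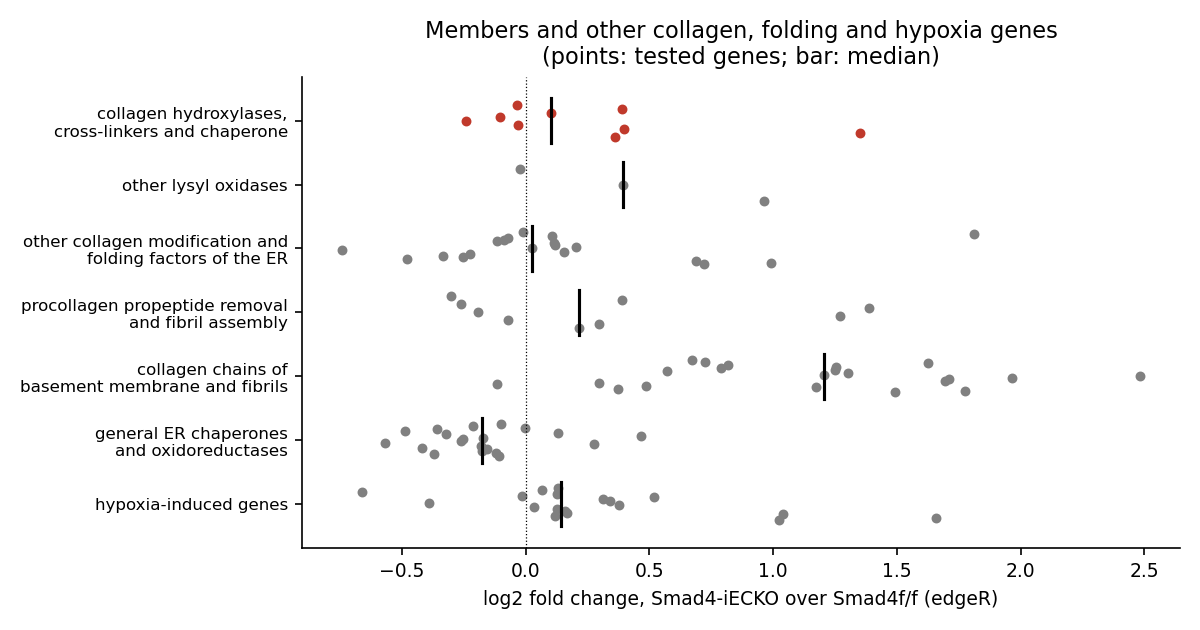
edgeR log2 fold changes, Smad4-iECKO over Smad4f/f, of the tested collagen hydroxylases, cross-linkers and chaperone (red) and of 6 other lists (gray); bars are medians. The median of the 9 tested members is 0.10, P4ha2 lies apart from the other 8 at 1.35, and the median of the collagen chains is 1.20.

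For the 2 genotypes the authors' deposited table lists P4ha2 at a log2 fold change of 1.26 with an adjusted p of 2.13e-34 and P4ha1 at 0.37 with an adjusted p of 0.0245, both higher in Smad4-iECKO. The other 7 members with an adjusted p in the authors' deposited table run from 0.378 (Loxl2) to 0.974 (Serpinh1), and Lox has none. An adjusted p under 0.05 is given to 13.4% of 14225 genes in the authors' deposited table, and 7.7% are also higher. Treating all 18 columns as samples in DESeq2, with a prior on fold changes, gave log2 fold changes within 0.01 of the authors' deposited table for 69.7% of 19650 genes, against 12.7% with DESeq2 on the 6 samples. In that fit of 18 columns P4ha2 (1.26, DESeq2 adjusted p = 1.31e-30) and P4ha1 (0.37, DESeq2 adjusted p = 0.0269) passed as well, with 11.8% of 18526 genes, and 7.03% passed on the higher side. Without the prior the shares were 12.1% and 7.28%. The 3 columns of a sample are copies, and with each sample counted once neither gene passed in any of the 19 other settings (smallest adjusted p 0.271 for P4ha2 and 0.914 for P4ha1).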

How the data were processed

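The authors' deposited count table gave whole-number read counts per gene, not normalized, in 18 columns. A second table deposited by the authors held their comparison, which per the file headers lists log2 fold changes with their errors, p-values (raw and adjusted), a score for the test and a mean signal. STAR, DESeq2 and mm10 were used, per the submitters' processing notes; versions, the counter and gene models: not given in the sources used here. RNA was column-purified and per the labels' protocols the TruSeq RNA v2 kit was used, which does not mark strand.

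Groups came from the genotype label, and replicate numbers follow accession order and pair nothing. Genes were tested by quasi-likelihood in edgeR 4.0.16 under R 4.3.3, with TMM scaling, filterByExpr (minimum count 10, minimum total 15), no covariate and Benjamini-Hochberg adjustment over 14362 genes. The standard error was the size of the log2 fold change divided by the square root of F. Alternatives included DESeq2 1.42.0, limma-voom (limma 3.58.1), other scalings, the title prefix and leaving out samples. A count of 3 equals 0.13 to 1.34 CPM per library on the unscaled totals, which is a mark of depth and not an error interval. Gene positions and merged exon lengths are from GENCODE M21, promoters from RefSeq (GRCm38.p6). Figures used matplotlib 3.10.9. Members and lists were chosen with earlier results of these data known. Named genes were all members, Smad4, fixed cell type markers and up to 4 genes with the smallest p of each other list.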

Additional observations from a re-analysis of the deposited data

Results flagged for a closer look

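In the prefix 40 pair, Smad4-iECKO replicate 2 over Smad4f/f replicate 2, the log2 ratio was 1.54 for Plod1 and 1.02 for Plod3. Within prefix 38 both Smad4-iECKO libraries lay below both Smad4f/f libraries for each gene, the opposite direction. With so few libraries such a split arises easily by chance, and its share over all tested genes was not counted. The ratios of Serpinh1 (0.588 in prefix 38 and 5.19 in prefix 40), P4ha3 (0.511 and 4.84) and P4hb (0.762 and 1.77) were also on opposite sides of 1, but their prefix 38 libraries overlapped between the genotypes. The edgeR test of the prefix by genotype interaction was chosen after seeing the data. It gave 2.30 for Plod1, 1.40 for Plod3 and 3.14 for Serpinh1 on the log2 scale, and none passed an adjusted p under 0.05. The share of all genes with values this high was not counted. Prefix 40 has 1 library per genotype, so only the prefix 38 libraries give that test its spread. The summed endothelial markers differed in the same pair, with 5398 CPM for the Smad4-iECKO library and 1523 CPM for the Smad4f/f library, and their part in these ratios was not tested.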

How the results depend on the processing

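No member passed an adjusted p under 0.05 in any setting that counted each sample once. P4ha2 and P4ha1 kept a positive log2 fold change in all 19 of these, and P4ha2 had an unadjusted p under 0.05 in 18, missing it with endothelial scaling. DESeq2 on the 18 columns called 2 members higher, P4ha1 and P4ha2, with or without a prior on fold changes, and 2178 or 2235 genes in all. The number of genes called was 12 with DESeq2, 8 with limma-voom and 0 to 35 when each sample was left out in turn, against 0 by edgeR (188 at an unadjusted p under 0.05). The DESeq2 fits without 1 sample, the 18-column fit with a prior and all relative levels without 1 sample were chosen after seeing the data.

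The remaining directions are not settled by these libraries. Prefix 38 alone gave -0.998 for P4ha3 and -0.39 for Plod3. The prefix as a term gave 0.0076 for P4hb and 0.19 for Serpinh1. Endothelial scaling gave 0.061 for Plod1, 0.098 for Plod2, -0.029 for Plod3 and 0.41 for Serpinh1, and limma-voom 0.47 for Plod2, -0.15 for Plod3 and 0.25 for Serpinh1. When each sample was left out in turn by edgeR or DESeq2, log2 fold changes ran from -0.83 to 1.47 for P4ha3, -0.27 to 0.29 for P4hb, -0.66 to 0.31 for Plod1, -0.38 to 0.40 for Plod2, -0.23 to 0.28 for Plod3, -0.0028 to 0.999 for Loxl2 and -0.50 to 0.86 for Serpinh1. Levels relative to the endothelial list then ran from -0.039 to 0.91 for P4ha1, 0.77 to 2.09 for P4ha2, -0.14 to 1.03 for P4ha3, -0.22 to 0.49 for P4hb, -0.027 to 0.13 for Plod1, -0.47 to 0.47 for Plod2 and -0.28 to 0.63 for Plod3. The cause of these reversals was not tested. Depth limits P4ha3 and Lox, with 29 reads or fewer in any library.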
